A study of Rattus norvegicus with 48 samples.

Results

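The lungs of 6 rats that had inhaled oil vapor on 16 days were set against those of 6 rats that had breathed filtered air in whole-body chambers, 1 day after the last exposure. These 12 libraries of lung RNA, out of 48 in the series, were chosen by the schedule, time and treatment in their sample names, and no measured value entered the choice. All animals were male Sprague-Dawley rats of about 200 to 250 g, and no age was given. The exposed group inhaled oil vapor particles at 300 ppm for 6 h a day on 4 days a week over 4 weeks, and the air group breathed filtered air only. The labels name the agent as oil vapor and give neither its source nor its composition. The other 36 libraries came from rats killed 28 days after the same schedule, and 1 or 28 days after a single exposure day, each time with 6 oil vapor and 6 air rats. Each library came from a piece of lung of 1 animal, so the standard deviations (SD) include the spread between animals.

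The gas exchange surface of the lung is lined by flat alveolar type 1 cells and by cuboidal type 2 cells, which make surfactant, and it is patrolled by alveolar macrophages. Airway club cells and type 2 cells carry the cytochrome P450 enzymes of the lung, which oxidize inhaled hydrocarbons, and phase 2 enzymes then couple the products to glutathione, sulfate or glucuronic acid. Inhaled irritants are known to engage antioxidant genes under the factor NRF2, cytokine genes under NF-kB and immediate early genes, which are transcribed within minutes of a stimulus.

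Library totals were 5.14 ± 2.11 M (mega) counts in oil vapor lungs and 5.38 ± 0.634 M in air lungs (SD, n = 6 each). A count of 3, the most that a count of 0 allows, corresponded to between 0.438 and 1.95 CPM, counts scaled to the library total. The lung markers Sftpc, Sftpb, Scgb1a1, Ager, Hopx, Cldn18 and Foxj1 were detected in all 12 libraries. Detection alone does not set lung apart from other tissues, since Alb of liver and Myh7 of heart ventricle were also detected in all 12. The library of animal 43, in the oil vapor group, stood apart. It held 1.54 M counts and 16830 detected genes, against 18397 to 19752 in the other oil vapor lungs and 18889 to 19331 in air lungs. Transcripts of the erythroid list, which holds globin, haem synthesis and red cell membrane genes, made up 4.70% of its counts, against 0.179% to 0.513% in the other oil vapor lungs and 0.233% to 0.543% in air lungs. Its share of Sftpc, the surfactant protein C transcript, was 0.208%, against 0.339% in animal 44, 0.532% to 0.594% in the other 4 oil vapor lungs and 0.499% to 0.695% in air lungs. Fold changes between oil vapor and air lungs of these 12 animals are therefore given with and without animal 43. Oil vapor animal 44 was also shallow, at 3.61 M counts against 6.13 to 6.84 M in animals 45 to 48. It was kept except where animals were left out in turn.

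A few transcripts, some of them of red cells, stood at like raw counts in animals of different schedules. When animals of each group were lined up by animal number with those of the single-exposure group of the same treatment and time, animal 43 faced animal 5, and the other 11 animals were matched in the same way. Alas2, the first enzyme of haem synthesis in red cell precursors, had 30019, 2615, 491, 1576, 4768 and 3923 counts in the 6 oil vapor lungs after 16 exposure days, and 27026, 2508, 500, 1533, 4441 and 4000 counts in the 6 oil vapor lungs after 1 exposure day. Its ratio stayed between 0.981 and 1.13 over all 12 pairs, oil vapor and air. Rsad2, an interferon-induced antiviral enzyme, had a ratio between 0.972 and 1.16. Sftpc did not follow this, with ratios between 0.128 and 1.498. Of 8528 tested genes with at least 20 counts in all 24 of these libraries, 7 had a ratio between 0.8 and 1.25 in all 12 pairs, and these were Alas2, Asb1, Bpgm, Cdc25b, Fech, Prdx2 and Rsad2, some of them chosen after their values were seen. They included 2 of 9 such erythroid genes and 1 of 30 interferon response genes, but 0 of 5 platelet, 0 of 6 neutrophil, 0 of 12 T cell and 0 of 6 B cell genes. The median number of pairs within that range was 10 for erythroid and for platelet genes and 7 over all 8528. The genes named below as passing a test were not among the 7. Whether libraries of the schedules share RNA or reads was not tested, and the values of animal 43 and the comparison of schedules are to be read with that limit.

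The ratio of animal 43 to animal 5 also differed by gene group. The library totals of both animals had a ratio of 0.324, and the median over 12786 genes with at least 20 counts in animal 5 was 0.241. A ratio of at least 0.8 was found for 342 of these genes, or 2.67%. It was found for 12 of 14 erythroid genes, 9 of 11 platelet genes and 9 of 12 liver genes, whose median ratios were 1.08, 1.05 and 1.29. Median ratios were 0.617 for neutrophil, 0.410 for B cell, 0.169 for alveolar type 2 and 0.181 for alveolar type 1 genes.

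**Figure D1:**
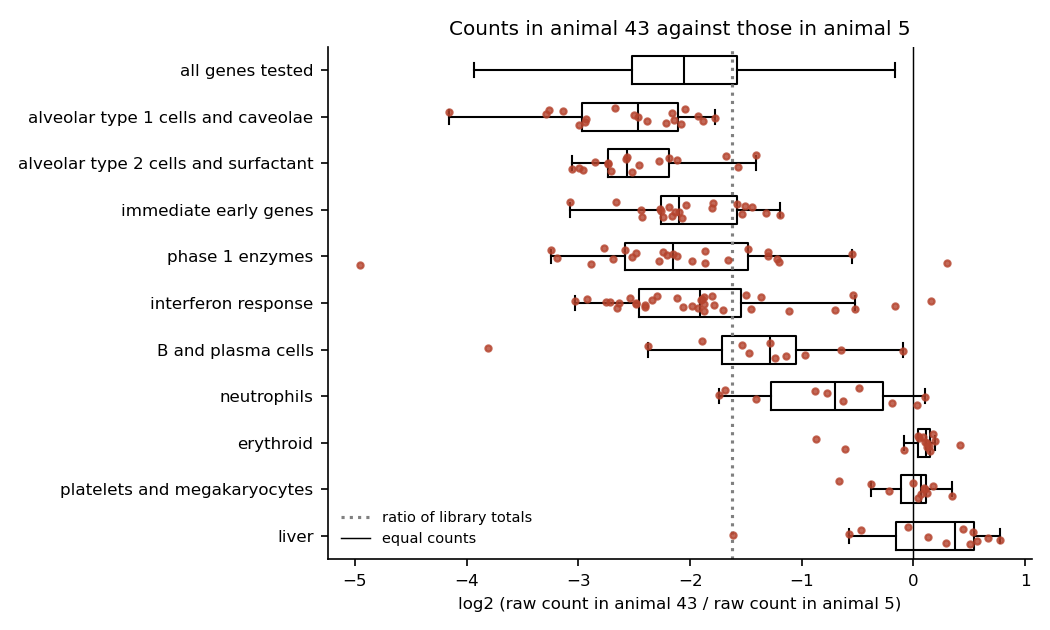
Raw count of each gene in animal 43 (oil vapor, 16 exposure days, 1 day) divided by that in animal 5 (oil vapor, 1 exposure day, 1 day), on a log2 axis, for genes with at least 20 counts in animal 5. Points are genes of the list, boxes give the median and quartiles with whiskers to the last gene within 1.5 box lengths, the dotted line marks the ratio of library totals (0.324) and the solid line equal counts, near which erythroid, platelet and liver genes lie.

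In the fit of the 24 libraries of this schedule, oil vapor lungs 1 day after exposure differed from air lungs in the level of a single gene. Mal2, a membrane protein that human polarized epithelial cells use to carry proteins across the cell, fell. Its levels in the 6 oil vapor lungs ran between 229 and 265 CPM with a median of 252, against 286 to 360 CPM with a median of 311 in the 6 air lungs. Every oil vapor lung, animal 43 included, lay below every air lung. The log2 fold change was -0.35 with a standard error (SE) of 0.06, and the adjusted p was 0.0255 by edgeR's quasi-likelihood test over 15005 genes. In a piece of lung, fewer cells of a type and less RNA per cell cannot be told apart.

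Across all genes, 1 of 15005 was called lower (0.00666%) and 0 were called higher (0.0%) at an adjusted p below 0.05. At an unadjusted p below 0.05, 1394 genes (9.29%) stood apart, 870 of them higher (5.8%) and 524 lower (3.49%) in oil vapor lungs. Limma-voom with sample weights, which gave animal 43 a weight of 0.162 and animal 44 a weight of 0.417, called 53 genes higher and 40 lower, and DESeq2 called 65 higher and 34 lower. The call of Mal2 was lost when any 1 of animals 44, 45 and 48 (oil vapor) or 36, 37 and 38 (air) was left out, with adjusted p between 0.00429 and 0.102 over the 12 omissions. Its log2 fold change stayed between -0.37 and -0.30. The call was also lost when only these 12 libraries were fitted (adjusted p = 0.379), with all 48 libraries (adjusted p = 0.0622), with no filter on low counts (adjusted p = 0.0518) and with a minimum of 1.5-fold. It held with RLE size factors, limma-voom, DESeq2 and 1 surrogate variable.

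Without animal 43, 17 of 15090 genes rose (0.113%) and 15 fell (0.0994%), 32 in all (0.212%). At an unadjusted p below 0.05 there were then 1121 genes higher (7.43%) and 915 lower (6.06%), or 13.5% in all. Leaving out any other single animal gave between 0 and 2 calls. Of the 32 genes, 30 were also called by limma-voom with sample weights, 23 by DESeq2, 18 with 1 surrogate variable, in which animal 43 had a value of -0.94 and the other 23 libraries of the fit lay between -0.08 and 0.12, and 8 with an erythroid score as a covariate. In all, these fits called 93, 99, 20 and 15 genes. The sample weights and the surrogate variable set animal 43 apart in these same data, so their overlap is not independent of leaving it out. The 13 lower genes and 15 higher genes with a gene symbol that the naming rule took are given here by what their products do.

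**Figure D2:**
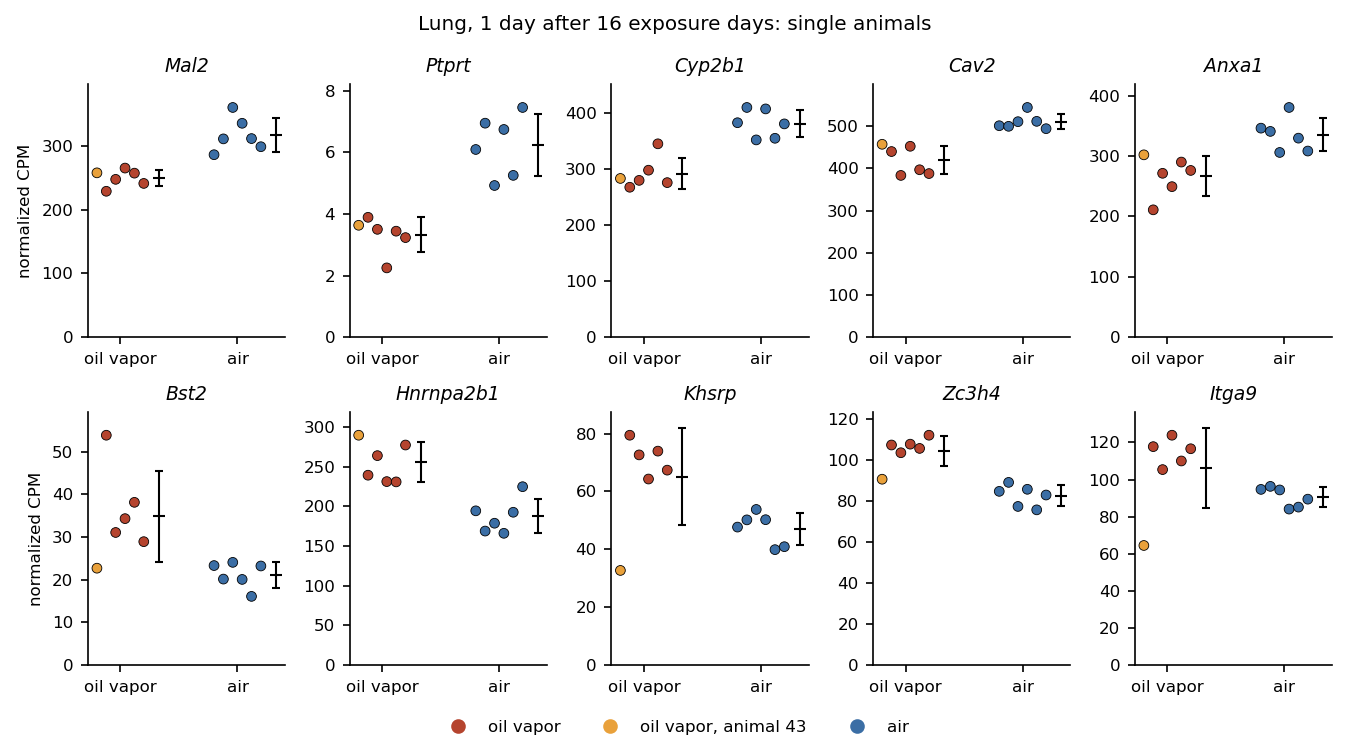
Normalized CPM of 10 genes in each of the 6 oil vapor lungs (red, with animal 43 in orange) and the 6 air lungs (blue), 1 day after 16 exposure days, on axes that start at 0. Bars give the mean ± SD, and the 6 oil vapor values of Mal2, Ptprt, Cyp2b1, Cav2 and Anxa1 lie below all air values, while animal 43 lies apart from the other oil vapor lungs for Khsrp and Itga9.

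Among membrane and signalling genes, Mal2 kept its log2 fold change of -0.35 ± 0.05 (SE) without animal 43, at an adjusted p of 0.00429. Ptprt, a receptor-type tyrosine phosphatase, fell at low levels. It had 2.25 to 3.89 CPM with a median of 3.47 in the 6 oil vapor lungs, against 4.92 to 7.45 CPM with a median of 6.41 in air lungs. The groups did not overlap, and its log2 fold change was -0.94 ± 0.17 (adjusted p = 0.0258) without animal 43 and -0.93 ± 0.17 (adjusted p = 0.0734) with it. The 3.63 CPM of animal 43 rested on 4 counts, in the library with a floor of 1.95 CPM. Its place below the air lungs is therefore uncertain. Hepacam2, a cell adhesion protein of the immunoglobulin family, had 5.16 to 8.17 CPM in oil vapor lungs and 7.06 to 14.5 CPM in air lungs. Its groups overlapped, and it fell by 0.75 on the log2 scale without animal 43 (adjusted p = 0.0488), against a log2 fold change of -0.72 with it (adjusted p = 0.16).

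Cav2, which with caveolin 1 builds the caveolae of endothelial and alveolar type 1 cells, fell without animal 43 by 0.31 ± 0.05 on the log2 scale (adjusted p = 0.012). Its levels were 384 to 457 CPM, median 419, in the 6 oil vapor lungs and 494 to 545 CPM, median 506, in air lungs. Anxa1, a calcium-dependent membrane-binding protein known for damping inflammation, had 211 to 302 CPM in oil vapor lungs and 306 to 381 CPM in air lungs. All 6 oil vapor lungs lay below all air lungs for both genes, and Anxa1 had a log2 fold change of -0.37 ± 0.07 without animal 43 (adjusted p = 0.0343). With it, the log2 fold changes were -0.28 for Cav2 and -0.33 for Anxa1 (adjusted p = 0.0989 and 0.173). The caveolar genes Cav1, Ptrf and Sdpr, chosen after their values were seen, had -0.11, -0.05 and -0.01 with animal 43. Without it they had -0.04, 0.07 and -0.05, and none passed in either case.

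Cyp2b1 encodes a cytochrome P450 abundant in the lungs of rats, where it oxidizes many foreign compounds, and it fell without animal 43. Oil vapor lungs held 267 to 345 CPM with a median of 281, and air lungs 352 to 410 CPM (lowest 351.9, highest 409.7) with a median of 381. The groups did not overlap, although the gap between them was narrow. The log2 fold change was -0.38 ± 0.07 without animal 43 (adjusted p = 0.0289) and -0.39 ± 0.07 with it (adjusted p = 0.0989). Its near-identical Cyp2b neighbours could share its reads, so that value is uncertain as to the gene.

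The other lower genes fell by 0.23 to 0.47 on the log2 scale without animal 43. Ndufb6, a subunit of respiratory complex I, had 14.2 to 15.5 CPM in the 5 other oil vapor lungs and 20 CPM (19.97) in animal 43, against 17.9 to 22.5 CPM in air lungs. Pdha1, the catalytic subunit of pyruvate dehydrogenase, had 128 to 141 CPM in those 5 lungs and 201 CPM in animal 43, against 145 to 170.5 CPM in air lungs. Vps28, which sorts membrane proteins to the lysosome, had 65.8 to 77.0 CPM in those 5 lungs and 39.02 CPM in animal 43, against 81.7 to 91.3 CPM in air lungs. In each of these the 5 lungs lay below all air lungs, and animal 43 lay far outside them, on the high side for Ndufb6 and Pdha1 and on the low side for Vps28. With animal 43 the log2 fold changes were -0.43 for Ndufb6, -0.14 for Pdha1 and -0.36 for Vps28, and none passed.

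Calm2, which encodes calmodulin, Fbxo3, a substrate receptor of a ubiquitin ligase, Tmed7, a cargo receptor of the early secretory pathway, and the zinc finger gene Zfp654 completed the lower genes, with log2 fold changes of -0.28, -0.30, -0.29 and -0.24 without animal 43. With it, they were -0.23, -0.22, -0.19 and -0.12 and none passed. In all 4 the highest oil vapor lung was animal 43, at 244, 129.8, 172 and 107 CPM, while the other 5 oil vapor lungs lay below every air lung.

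Several of the higher genes encode RNA-binding proteins. Khsrp, which binds AU-rich elements and guides splicing and decay of messenger RNA, rose by 0.60 ± 0.09 on the log2 scale without animal 43 (adjusted p = 0.00418). It had 64.3 to 79.4 CPM in 5 oil vapor lungs and 32.7 CPM in animal 43, against 39.9 to 53.8 CPM in air lungs. With animal 43 the log2 fold change was 0.50 ± 0.13 and did not pass (adjusted p = 0.179). Hnrnpa2b1, an abundant nuclear RNA-binding protein, had 231 to 289 CPM in all 6 oil vapor lungs and 166 to 225 CPM in air lungs. Its groups did not overlap, animal 43 was the highest lung, and the log2 fold change was 0.41 ± 0.08 without animal 43 (adjusted p = 0.0388) and 0.44 ± 0.09 with it (adjusted p = 0.0989).

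Pabpn1, the nuclear poly(A)-binding protein, rose by 0.40 without animal 43 (adjusted p = 0.0289), with 88.03 to 113 CPM in the 5 lungs and 78.0 CPM in animal 43, against 75.2 to 86.6 CPM in air lungs. Zc3h4, a zinc finger protein that curbs non-coding transcription in human cells, rose by 0.38 (adjusted p = 0.0289), and all 6 oil vapor lungs, at 90.8 to 112 CPM, lay above the air lungs at 75.8 to 89.2 CPM. Eif3b, a subunit of a translation initiation factor, rose by 0.29 (adjusted p = 0.0388), with 79.1 to 92.5 CPM in the 6 oil vapor lungs and 61.4 to 73.5 CPM in air lungs. Rrbp1, a ribosome receptor of the endoplasmic reticulum, rose by 0.28 (adjusted p = 0.0343), with 284 to 323 CPM in 5 oil vapor lungs, 209 CPM in animal 43 and 238 to 271 CPM in air lungs. The difference of Zc3h4 and Eif3b thus held in every animal, whereas for Rrbp1 animal 43 lay below all air lungs. With animal 43, Pabpn1 and Zc3h4 had log2 fold changes of 0.35 each, Eif3b 0.28 and Rrbp1 0.21, with adjusted p between 0.16 and 0.426.

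Bst2, or tetherin, is an interferon-induced membrane protein that holds budding viruses at the cell surface. It had the largest log2 fold change among the 17 higher genes, 0.80 ± 0.14 without animal 43 (adjusted p = 0.012) and 0.75 ± 0.15 with it (adjusted p = 0.0989). The 6 oil vapor lungs held 22.7 to 53.9 CPM with a median of 32.7, against 16.1 to 24.1 CPM with a median of 21.7 in air lungs. Animal 43, at 22.7 CPM, was the only oil vapor lung within the range of air lungs. The highest was animal 44 at 53.9 CPM, and animals 45 to 48 had 28.9 to 38.1 CPM. The promoter is shown because Bst2 is the single interferon-responsive gene that passed, and its capitals mark the matches to GAAA followed by any 2 bases and GAAA, searched on both strands, a spacing of repeats typical of interferon-stimulated response elements. The sequence runs from 250 bases before to 50 bases after the gene start, on the minus strand at chr16:18254918-18255217 of RefSeq's GRCr8.
Bst2 promoter: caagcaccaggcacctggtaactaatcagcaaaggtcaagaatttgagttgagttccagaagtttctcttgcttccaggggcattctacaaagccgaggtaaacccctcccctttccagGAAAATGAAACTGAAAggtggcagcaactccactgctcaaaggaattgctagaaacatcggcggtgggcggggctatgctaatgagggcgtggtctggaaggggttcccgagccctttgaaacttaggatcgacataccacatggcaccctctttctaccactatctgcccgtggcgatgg
The 2 matches overlap. The motif occurred in 18 of the 25 promoters of interferon genes found in RefSeq's table (72.0%), and in 1034 of all 27457 promoters (3.77%).

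Bst2 stood alone in its list. Of 36 interferon response genes, 35 passed the filter on low counts, of which 29 had a log2 fold change above 0 with animal 43 and 24 without it, against 8209 of all 15005 genes (54.7%) with it and 49.7% without it. The shares below 0 over all genes were 45.3% with it and 50.3% without it. The median was 0.12 with and 0.05 without animal 43, against 0.02 and -0.00 over all genes. By an unadjusted p below 0.05, 5 members were higher with animal 43, and 1 was higher and 1 lower without it. Over all genes, 5.8% were higher at that p with animal 43, and 7.43% were higher and 6.06% lower without it. Rsad2 had 8831 CPM in animal 43, against 38.1 to 282 CPM in the other oil vapor lungs and 116 to 686 CPM in air lungs. Its log2 fold change was 2.25 ± 0.90 with animal 43 (adjusted p = 0.427) and -0.88 ± 0.47 without it (adjusted p = 0.421). Rsad2 was among the 7 genes with like counts in all 12 pairs above, as was Alas2. In oil vapor animals 43 to 48, Rsad2 had 9731, 847, 272, 689, 1703 and 1749 counts. Alas2 had 30019, 2615, 491, 1576, 4768 and 3923 counts in them. Why Rsad2 ran with this red cell transcript was not tested. Ifi44l and Ifit2 had log2 fold changes of 0.26 and 0.27 with animal 43, and 0.20 and 0.14 without it, and neither passed.

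The other higher genes had varied roles. Cap1, which recycles actin monomers, rose by 0.35 ± 0.07 (adjusted p = 0.0289), and the microtubule-binding gene Eml2 rose by 0.45 ± 0.09 (adjusted p = 0.0289), both without animal 43. Itga9, an integrin subunit that binds tenascin and other matrix ligands, rose by 0.34 ± 0.05 (adjusted p = 0.00418). Its 5 oil vapor lungs held 105 to 124 CPM and animal 43 held 64.4 CPM, against 84.1 to 96.3 CPM in air lungs, so that animal 43 lay below all air lungs. The same held for Cap1, at 155 CPM in animal 43 against 160 to 176 CPM in air lungs. For Eml2, animal 43 held 17.2 CPM, again below the air lungs at 25.5 to 30.2 CPM. With animal 43, the log2 fold changes were 0.29 for Cap1, 0.36 for Eml2 and 0.25 for Itga9, and none passed.

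Cemip, which binds and breaks down hyaluronan, rose by 0.72 ± 0.16 (adjusted p = 0.0488), with 18.6 to 29.4 CPM in 5 oil vapor lungs, 8.17 CPM in animal 43 and 9.89 to 16.6 CPM in air lungs. Sema4c, a membrane-bound semaphorin, rose by 0.49 ± 0.10 (adjusted p = 0.0343), with 23.3 to 24.5 CPM in the 5 lungs, 10.9 CPM in animal 43 and 12.3 to 20.7 CPM in air lungs. Frmd4a, a scaffold of epithelial polarity, rose by 0.40 ± 0.09 (adjusted p = 0.0461), and all 6 oil vapor lungs, at 45.4 to 62.8 CPM, lay above the air lungs at 35.8 to 43.8 CPM. Itpkb, an inositol phosphate kinase of calcium signalling, and Atp6v0c, the membrane ring subunit of the vacuolar proton pump, rose by 0.37 and 0.50 (adjusted p = 0.0343 and 0.0289). Animal 43 held 102 CPM of Itpkb, below the air lungs at 138 to 186 CPM. It held 59.9 CPM of Atp6v0c, within the 58.6 to 72.5 CPM of air lungs. With animal 43, log2 fold changes were 0.63 for Cemip, 0.42 for Sema4c, 0.37 for Frmd4a, 0.25 for Itpkb and 0.44 for Atp6v0c, with adjusted p between 0.173 and 0.525.

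The 5 genes of each direction with the smallest p when animal 43 was kept added Dynll2, a light chain of cytoplasmic dynein, and Acss3, a mitochondrial acyl-CoA synthetase. Dynll2 had 60.8 to 75.3 CPM in the 6 oil vapor lungs and 43.9 to 57.9 CPM in air lungs, and Acss3 had 39.9 to 50.9 CPM in oil vapor lungs and 52.3 to 63.0 CPM in air lungs. Neither pair of groups overlapped, and neither gene passed with animal 43 (adjusted p = 0.165 for Dynll2 and 0.14 for Acss3) or without it (adjusted p = 0.0539 and 0.056). Over all genes, the 6 oil vapor lungs lay wholly above the 6 air lungs for 55 genes (0.367%) and wholly below for 36 (0.24%). Without animal 43 these numbers were 209 (1.39%) and 131 (0.873%).

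**Figure D3:**
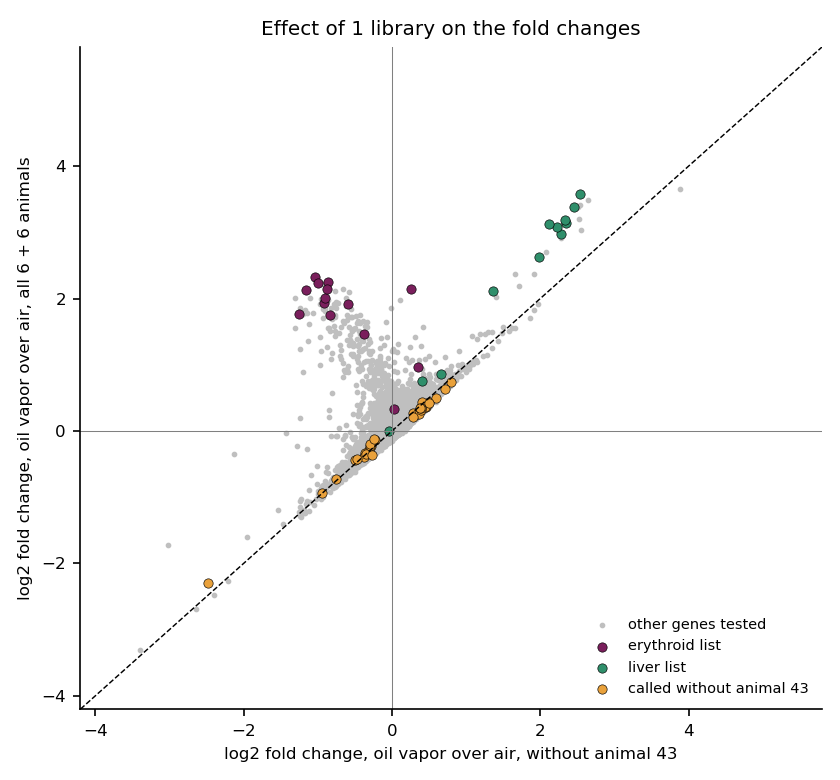
Log2 fold change of every gene tested, oil vapor over air, with all 12 libraries (vertical axis) and without animal 43 (horizontal axis); the dashed line marks equal values. Erythroid genes (purple) mostly lie above 1 with animal 43 and below 0 without it, liver genes (green) mostly lie above 1 on both axes, and genes called without animal 43 (orange) lie close to the line.

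Enzymes of foreign compound metabolism were examined as lists. Over all genes tested, 45.3% were below 0 and 54.7% above 0 with animal 43, against 50.3% and 49.7% without it. At an unadjusted p below 0.05, 3.49% were lower and 5.8% higher with it, and 6.06% lower and 7.43% higher without it. The counts of this and the following lists are to be read beside these shares. Of 29 phase 1 genes that passed the filter on low counts, out of 32, 23 had log2 fold changes below 0 with animal 43 and 18 without it, with medians of -0.11 and -0.07. By an unadjusted p below 0.05, 3 were lower and 1 was higher in either case. Besides Cyp2b1, they were Cyp4b1, a lung P450 acting on fatty acids and small aromatic compounds, Aox3, an aldehyde oxidase, and Aox1, another aldehyde oxidase, with log2 fold changes of -0.37, -0.29 and 0.57 with animal 43 and -0.26, -0.22 and 0.64 without it, none of which passed adjustment. Cyp1a1, the classical target of the aryl hydrocarbon receptor, had a log2 fold change of -0.03 with animal 43 and 0.02 without it, and was chosen after its values were seen. The aryl hydrocarbon receptor list had 6 tested genes, the receptor gene Ahr and targets of the receptor. Of these 6, 0 had an unadjusted p below 0.05 with animal 43 by edgeR's quasi-likelihood test, and 1 was lower without it. This was Tiparp, an ADP-ribosyltransferase induced by the receptor, also chosen after its values were seen. Its levels were 49.99 to 62.5 CPM in 5 oil vapor lungs and 93.5 CPM in animal 43, against 64.3 to 78.6 CPM in air lungs. The log2 fold change was -0.22 without animal 43 (adjusted p = 0.157) and -0.12 with it (adjusted p = 0.728).

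Of 20 tested phase 2 genes, 18 had log2 fold changes below 0 with animal 43 and 19 without it, with medians of -0.12 and -0.13. The sulfotransferase Sult1a1 and the glutathione transferases Gsta4 and Mgst1 were among the members with the smallest p, at log2 fold changes of -0.22, -0.22 and -0.18 with animal 43 (adjusted p between 0.459 and 0.572) and -0.27, -0.27 and -0.19 without it (adjusted p between 0.181 and 0.380). Their groups overlapped in every case. NRF2 targets were split. Of 18 tested, 10 were above 0 with animal 43 and 4 without it, with medians of 0.08 and -0.08. Over all genes the median was 0.02 with and -0.00 without animal 43. Of the members of these lists, 1 passed adjustment, Cyp2b1 without animal 43.

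Of the alveolar genes listed, none but Cav2 passed. Of 19 tested alveolar type 1 and caveolar genes, 15 were below 0 with animal 43 and 12 without it, with medians of -0.11 and -0.04. Cldn18, a lung tight junction protein, had 269 to 331 CPM in 5 oil vapor lungs and 241 CPM in animal 43, against 229 to 251 CPM in air lungs (log2 fold change 0.31 with and 0.35 without animal 43, adjusted p = 0.387 and 0.123). Pdpn, the podoplanin of type 1 cells, had a log2 fold change of -0.20 with and -0.18 without animal 43, and Rtkn2, a type 1 cell marker, had -0.16 and -0.15, with overlapping groups.

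Of 17 tested alveolar type 2 and surfactant genes, 13 were below 0 with animal 43 and 10 without it, with medians of -0.08 and -0.06. Sftpc had 2907 CPM in animal 43 and 3396 to 5805 CPM in the other oil vapor lungs, against 4883 to 6808 CPM in air lungs, a log2 fold change of -0.30 with animal 43 and -0.19 without it (adjusted p = 0.473 and 0.415). Sftpa1, surfactant protein A, and Scd, a fatty acid desaturase, had log2 fold changes of -0.22 and -0.28 with animal 43 and -0.14 and -0.24 without it, and their groups overlapped. In the polarized epithelium list, in which Mal2 stands, 18 of 25 members were below 0 with animal 43 and 15 without it. After Mal2, its members with the smallest p were the adhesion molecule Epcam, Cldn18 and the motor Myo5b. Epcam and Myo5b had log2 fold changes of -0.28 and -0.17 with animal 43 (adjusted p = 0.215 and 0.502) and -0.25 and -0.11 without it, whereas Cldn18, with the values above, lay on the high side.

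Of the remaining epithelial and metabolic lists, ciliated cell genes had medians of -0.11 with and -0.05 without animal 43, club cell and mucus genes -0.10 and 0.02, cholesterol synthesis genes -0.10 and -0.11, and fatty acid synthesis genes -0.10 and -0.11. Of 13 club cell and mucus genes, 5 were above and 8 below 0 with animal 43. Among them Scgb1a1, chosen after its values were seen, had log2 fold changes of 0.37 with and 0.43 without animal 43. It had medians of 2402 CPM in oil vapor lungs and 1869 CPM in air lungs, with overlapping groups, and did not pass. Of 22 cholesterol synthesis genes, 1 was lower with animal 43 at an unadjusted p below 0.05 and 5 without it, and 1 was higher in either case. Of 15 fatty acid synthesis genes, 4 were lower with animal 43 and 5 without it, and none of either list passed adjustment. Over all genes, 3.49% were lower at that p with animal 43 and 6.06% without it. Alveolar macrophage genes had medians of -0.04 and -0.15, and cytokine and NF-kB response genes 0.07 and 0.02.

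Mesothelial genes, which mark the cell layer covering the lung, were all on the low side. The 9 tested had log2 fold changes below 0 with and without animal 43, with medians of -0.35 and -0.32, and 2 had an unadjusted p below 0.05. Over all genes, 45.3% lay below 0 with animal 43 and 50.3% without it, and 3.49% and 6.06% were lower at that p. Rspo1, a member chosen after its values were seen, had only -0.01 with and -0.03 without animal 43. Upk1b, a uroplakin, had 3.64 to 6.62 CPM with a median of 4.38 in oil vapor lungs and 3.19 to 14.9 CPM with a median of 9.04 in air lungs. Its log2 fold change was -0.90 ± 0.30 with animal 43 (adjusted p = 0.354) and -0.90 ± 0.31 without it (adjusted p = 0.188), and the air lungs spanned the whole range of the oil vapor lungs. Krt19, a keratin, Lrrn4 and Upk3b had log2 fold changes of -0.25, -0.49 and -0.60 with animal 43 and -0.16, -0.54 and -0.64 without it, and none passed. Summed over the list, oil vapor lungs held 210 CPM (209.6, animal 43) to 272 CPM and air lungs 262 to 358 CPM. Most of this sum was Krt19, with medians of 177 CPM in oil vapor lungs and 194 CPM in air lungs. The medians of the sum were 256 and 298 CPM, so it says little of the other members.

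Immediate early genes lay on the high side together. Of 26 listed, 23 passed the filter, 21 had log2 fold changes above 0 with animal 43 and 22 without it, and the medians were 0.32 and 0.35. With animal 43, 9 of the 23 were higher at an unadjusted p below 0.05, and without it 15, and 0 were lower in either case by edgeR's quasi-likelihood test. Over all genes, 54.7% were above 0 with animal 43 and 49.7% without it, and 5.8% and 7.43% were higher at that p. None of the 23 passed adjustment. Egr1, a zinc finger factor induced by growth signals and stretch, had 9.07 to 22.2 CPM with a median of 13.5 in oil vapor lungs, against 5.58 to 12.3 CPM with a median of 5.97 in air lungs. Its log2 fold change was 1.00 ± 0.37 with animal 43 (adjusted p = 0.397) and 1.06 ± 0.37 without it (adjusted p = 0.19), and the groups overlapped. Junb and Jund, which are subunits of AP-1, and Cyr61, a matricellular protein, had log2 fold changes of 0.40, 0.26 and 0.47 with animal 43 and 0.29, 0.24 and 0.55 without it, and none passed.

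The Egr1 promoter is shown as that of the immediate early gene with the largest log2 fold change. Its capitals mark the matches to the CArG box, the recognition motif of serum response factor, searched on both strands. It lies on the plus strand at chr18:26736828-26737127 of RefSeq's GRCr8.
Egr1 promoter: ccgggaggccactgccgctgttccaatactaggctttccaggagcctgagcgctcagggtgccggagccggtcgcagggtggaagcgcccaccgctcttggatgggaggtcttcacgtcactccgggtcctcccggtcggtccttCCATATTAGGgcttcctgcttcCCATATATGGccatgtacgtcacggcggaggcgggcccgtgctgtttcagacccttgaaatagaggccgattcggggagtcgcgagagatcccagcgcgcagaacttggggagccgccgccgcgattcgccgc
The box occurred in 4 of the 15 immediate early promoters found in RefSeq's table (26.7%), and in 451 of all 27457 promoters (1.64%). The same list had a median of 0.27 in the oil vapor effect at 28 days and of -0.23 in that of the single exposure day at 1 day.

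Splicing factors of the hnRNP and SR families had 25 of 29 tested members above 0 with animal 43 and 21 without it, with medians of 0.10 and 0.06. Of these, 7 were higher at an unadjusted p below 0.05 with animal 43 and 6 without it, and 0 were lower in either case by edgeR's quasi-likelihood test. Over all genes, 5.8% were higher at that p with animal 43 and 7.43% without it. Hnrnpa2b1, Hnrpd and Srsf4 had oil vapor lungs wholly above air lungs, 3 of 29 members against 55 of all 15005 genes (0.367%). Hnrpd, an AU-rich element binding protein, had 57.8 to 116 CPM in oil vapor lungs, with animal 43 as the highest, and 47.97 to 56.8 CPM in air lungs, a log2 fold change of 0.44 with and 0.30 without animal 43 that did not pass. Srsf7, a splicing factor, had a log2 fold change of 0.31 with and 0.29 without animal 43 (adjusted p = 0.173 and 0.0736), and Srsf4 had 0.24 and 0.18.

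Collagen and elastic fibre genes had 10 of 19 tested members above 0 with animal 43 and 14 without it, with medians of 0.02 and 0.09. At an unadjusted p below 0.05, 1 was higher with animal 43 and 7 without it, and none passed adjustment. Over all genes, 5.8% were higher at that p with animal 43 and 7.43% without it. Bgn, the proteoglycan biglycan, and Fbln5, an elastic fibre protein, had log2 fold changes of 0.45 and 0.47 without animal 43 (adjusted p = 0.0797 and 0.0949) and 0.35 each with it. Both were highest in oil vapor animal 44, at 445 and 85.5 CPM. Animals 45 to 48 held 230 to 285 CPM of Bgn and 59.9 to 76.9 CPM of Fbln5. Air lungs held 190 to 234 CPM and 42.8 to 61.0 CPM. Fn1, fibronectin, had 1083 to 1417 CPM in 5 oil vapor lungs, highest in animal 44, and 898 CPM in animal 43. Air lungs held 942 to 1064 CPM of Fn1, and its log2 fold changes were 0.17 with and 0.23 without animal 43. Postn, periostin, had a log2 fold change of -0.11 with and -0.07 without animal 43.

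Blood cell lists rested on animal 43 to different degrees. All 14 tested erythroid genes were above 0 with animal 43, with a median of 1.97, and 3 were above 0 without it, with a median of -0.87. The log2 fold change of Hbb was 2.15 with animal 43 and 0.26 without it, and that of Hba1 0.97 and 0.35. Hbb, which encodes beta globin, had 23775 CPM in animal 43 and 645 to 2491 CPM in the other oil vapor lungs, against 890 to 1679 CPM (lowest 889.8) in air lungs. Hba1, an alpha globin gene, had 4153 CPM in animal 43, 707 to 1325 CPM in the others and 613 to 1014 CPM in air lungs. Reads of near-identical globin copies could be split, so both are uncertain as single genes. Bpgm, a red cell enzyme, had a log2 fold change of 1.92 with animal 43 and -0.59 without it, and none of these genes passed adjustment.

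Platelet genes had a median of 1.42 with animal 43 and -0.57 without it, and neutrophil genes had 0.64 and 0.02. S100a8 and S100a9, the calprotectin subunits of neutrophils, had 249 and 572 CPM in animal 43. In the other oil vapor lungs S100a8 had 14.7 to 35.5 CPM, against 15.4 to 30.5 CPM in air lungs. Their log2 fold changes were 1.10 and 1.20 with animal 43 and -0.06 and 0.07 without it. Csf3r, the receptor of a granulocyte growth factor, had 0.43 with animal 43 and 0.30 without it. No neutrophil gene passed adjustment in either case.

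T cell genes had a median of 0.35 with animal 43 and 0.02 without it, and ribosomal protein genes had 0.16 and -0.11. Of 24 ribosomal protein genes, 22 were above 0 with animal 43, with 1 higher at an unadjusted p below 0.05, and 4 were above 0 without it, with 10 lower at that p. Over all genes, 54.7% were above 0 with animal 43 and 49.7% without it, and 6.06% were lower at that p without it. B and plasma cell genes kept their side. All 13 tested were above 0 with and without animal 43, against 54.7% and 49.7% over all genes, with medians of 0.32 and 0.24. Summed over the list, animal 43 held 362 CPM and the other 5 oil vapor lungs 149 to 218 CPM. Air lungs held 110 to 204 CPM, so the animals of the 2 groups overlapped. Tnfrsf13c, the B cell survival receptor, had 3.13 to 5.45 CPM with a median of 4.41 in oil vapor lungs and 1.12 to 4.62 CPM with a median of 2.61 in air lungs. Its log2 fold change was 0.62 with and 0.59 without animal 43 (adjusted p = 0.525 and 0.39), and Cd79b, Pax5 and Blnk, genes of B cell receptor signalling and identity, had 0.50, 0.36 and 0.31 with it and 0.30, 0.34 and 0.35 without it. By an unadjusted p below 0.05, 2 of the 13 were higher with animal 43 and 1 without it, against 5.8% and 7.43% over all genes.

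Liver genes had the highest median of all lists, with a wide spread between animals. Alb, which encodes serum albumin, had 1092, 89, 1511, 204, 401 and 1791 counts in oil vapor animals 43 to 48, against 132, 75, 120, 265, 81 and 47 counts in the 6 air lungs. As normalized CPM, animal 43 was the highest at 991, animals 45, 47 and 48 had 211, 62.7 and 289, and animals 44 and 46 had 24.7 and 30.6, against 10.01 to 42.5 CPM in air lungs. Oil vapor animals 44 and 46 thus lay within the range of air lungs and the other 4 above it. The log2 fold change was 3.58 ± 0.92 with animal 43 (adjusted p = 0.183) and 2.54 ± 0.80 without it (adjusted p = 0.149). Of 12 tested liver genes, 11 were above 0 with and without animal 43, with medians of 3.03 and 2.17, and none passed adjustment. Apob, Ttr and Fgb, which encode an apolipoprotein, transthyretin and a fibrinogen chain, had log2 fold changes of 3.38, 3.14 and 3.19 with animal 43 and 2.45, 2.34 and 2.33 without it. Summed over the list, the other 5 oil vapor lungs held 193 to 811 CPM and air lungs 220 CPM (219.5) to 325 CPM. In air lungs the sum had a median of 251 CPM, against 17.6 CPM for Alb, 3.01 for Apob, 1.23 for Ttr and 1.13 for Fgb. Most of the sum in air lungs thus came from other members of the list, and it says little of these genes. The median of the liver list was -3.03 in the oil vapor effect at 28 days and 2.39 in that of the single exposure day at 1 day. At 28 days Alb had medians of 8.83 CPM in oil vapor lungs and 41.7 CPM in air lungs, but the highest air lung held 672 CPM. How far the effect at 28 days rests on that air lung was not tested. At 1 day after the single exposure day, Alb had 768, 48, 1345, 197, 323 and 1547 counts in the oil vapor lungs, lined up by animal number as above. Its ratio between the schedules lay between 0.882 and 1.85 over the 12 pairs, and why these counts follow each other was not tested.

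**Figure D4:**
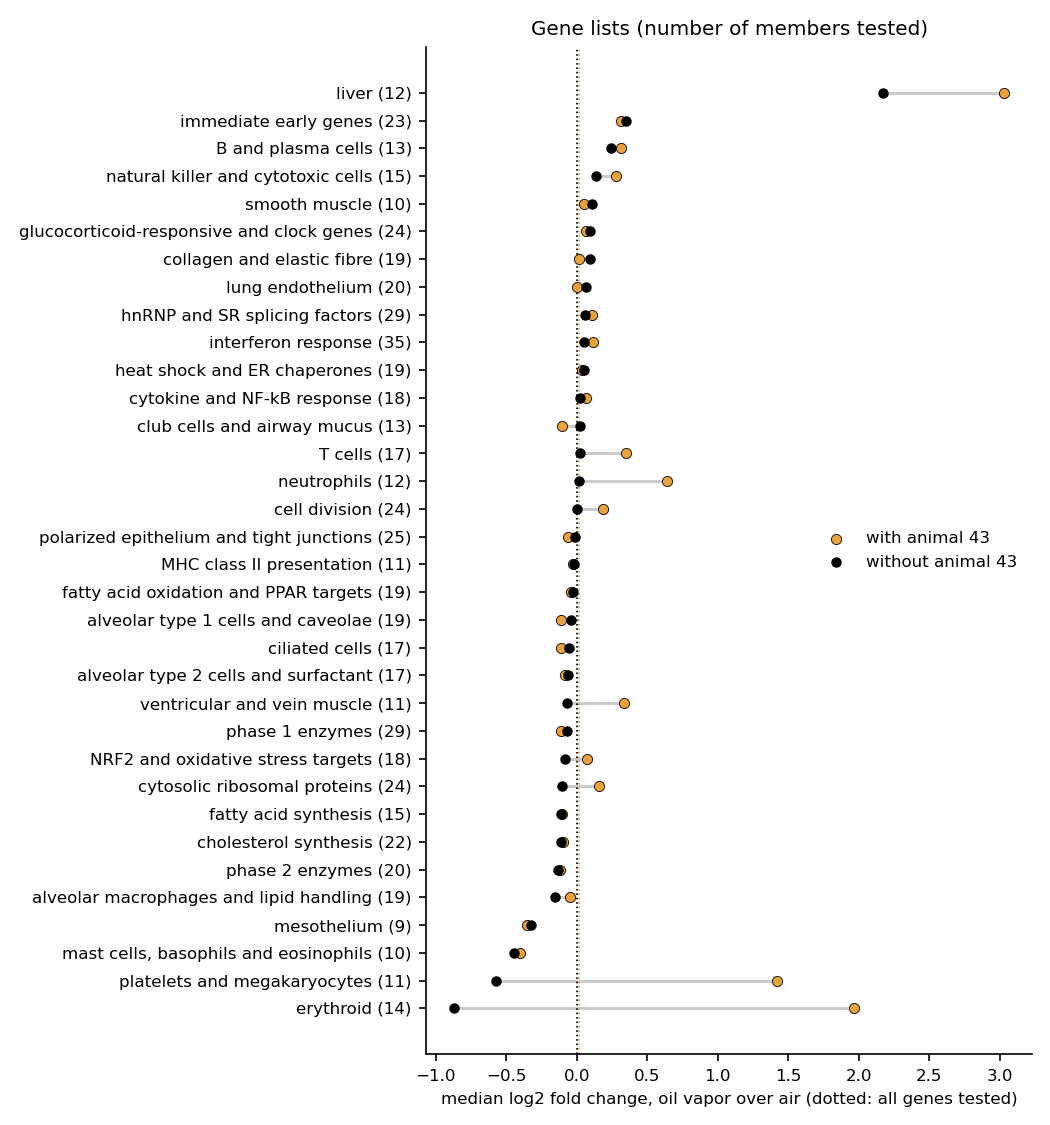
Median log2 fold change, oil vapor over air, of each gene list with at least 9 members that passed the filter on low counts, with animal 43 (orange) and without it (black), beside the median of all genes (dotted lines, 0.02 and -0.00). Erythroid genes stand at 1.97 and -0.87, platelet genes at 1.42 and -0.57 and liver genes at 3.03 and 2.17, while immediate early genes (0.32 and 0.35) and mesothelial genes (-0.35 and -0.32) lie close together with and without animal 43.

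Whether the oil vapor effect at 1 day differed from that at 28 days after the same 16 exposure days was tested as an interaction. It differed for 1 gene, Ptprt (0.00666%), at a log2 difference of -1.42 ± 0.24 between the effects (adjusted p = 0.0472 by edgeR's quasi-likelihood test). At 28 days Ptprt had a median of 4.68 CPM in oil vapor lungs and 3.22 CPM in air lungs, a log2 fold change of 0.49, against -0.93 at 1 day. The call was lost when any 1 of animals 46, 47 and 48 (oil vapor) or 36, 38, 39 and 40 (air) was left out, with adjusted p between 0.0317 and 0.134 over the 12 omissions. With RLE size factors or with no filter on low counts, 0 genes were called for this difference by edgeR's quasi-likelihood test, Ptprt included. At an unadjusted p below 0.05 there were 1171 genes (7.8%), and without animal 43 the test called 3 genes (0.0199%). The next genes by p were Mal2, Alb, Cdhr2, a cadherin of microvilli, Bhmt, a liver enzyme of methionine metabolism, and Hepacam2, with log2 differences of -0.43, 7.18, -1.89, 6.73 and -1.08 and adjusted p between 0.0691 and 0.12. At 28 days itself 0 genes were called (0.0%) and 729 had an unadjusted p below 0.05 (4.86%) in edgeR's quasi-likelihood test.

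Mal2 had medians of 307 CPM in oil vapor lungs and 288 CPM in air lungs at 28 days, and of 269 CPM in oil vapor lungs and 288 CPM in air lungs 1 day after a single exposure day. Its log2 fold changes there were 0.08 ± 0.05 and 0.00 ± 0.07. For the 28 named genes that passed without animal 43, log2 fold changes at 28 days lay between -0.22 for Eml2 and 0.49 for Ptprt. They were 0.02 for Bst2, 0.03 for Cav2, 0.08 for Cyp2b1, 0.08 for Khsrp, -0.07 for Hnrnpa2b1 and 0.35 for Hepacam2. Of the 28, Ptprt alone had a difference between the times that passed adjustment.

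The effect was also set against that of a single exposure day at 1 day, in a fit of all 48 libraries. It differed for 7 of 15322 genes (0.0457%), and 1492 had an unadjusted p below 0.05 (9.74%). By the naming rule, the 5 with the smallest p were Zdhhc17, a palmitoyltransferase, Cldnd1, a claudin-like membrane protein, Myl12b, a regulatory light chain of non-muscle myosin, Rab27a, a GTPase of secretory granule release, and Wbp2, a coactivator that binds WW domains. Zdhhc17 had a log2 difference of -0.40 between the effects (adjusted p = 0.0279). The other 4 had differences of 0.89, 1.29, 1.08 and 1.01, at an adjusted p of 0.0279 for Cldnd1 and 0.0393 for the other 3. The other 2 of the 7, LOC306766 and Lbp, were chosen after their values were seen and had log2 differences of 0.64 and 1.43. After the single exposure day itself 0 genes were called (0.0%) by edgeR's quasi-likelihood test, and 1271 had an unadjusted p below 0.05 (8.3%).

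Rab27a had 46.03 to 69.9 CPM in oil vapor lungs and 27.6 to 42.4 CPM in air lungs after 16 exposure days, against 28.0 to 45.3 CPM in oil vapor lungs and 44.5 to 62.7 CPM in air lungs after 1 exposure day. Oil vapor lungs thus lay wholly above air lungs after 16 exposure days and mostly below them after 1 exposure day. Myl12b had 73.7 to 128 CPM in oil vapor lungs and 48.3 to 63.4 CPM in air lungs after 16 exposure days, against 59.6 to 72.5 CPM in oil vapor lungs and 60.4 to 153 CPM in air lungs after 1 exposure day. Zdhhc17 had medians of 58.3 CPM in oil vapor lungs and 65.2 CPM in air lungs, against 63.3 CPM in oil vapor lungs and 54.0 CPM in air lungs after 1 exposure day. Levels after 16 exposure days were normalized with the 24 libraries of that table and those after 1 exposure day with all 48, so levels are not set across schedules, and the tested difference is between the effects within each.

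These calls depended on single animals. Zdhhc17 kept its call in 9 of 12 omissions of 1 animal, losing it without animal 47 (oil vapor) or 37 or 38 (air), and the other 4 genes kept theirs in 4 to 6, all 4 losing it without animal 44 or 47 (oil vapor) or 36, 37 or 38 (air). Cldnd1, Myl12b and Rab27a also lost it without animal 45 (oil vapor), Myl12b, Rab27a and Wbp2 without animal 34 (air), and Myl12b without animal 39 (air). Adjusted p lay between 0.00504 and 0.121 over these omissions. Animals of the single-exposure and 28-day groups were not left out in turn. Without animal 43, 25 genes were called (0.162%), and without animals 37, 38 or 47, 0.

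**Figure D5:**
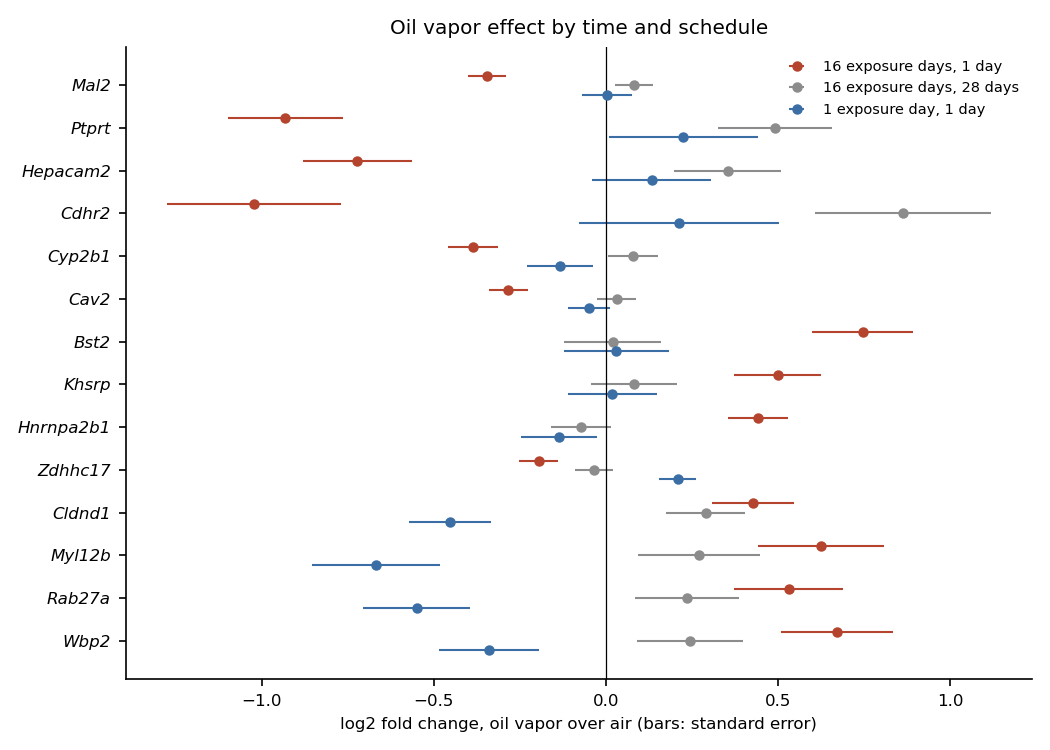
Log2 fold change of oil vapor over air (horizontal axis, bars give the standard error) for 14 genes in the 3 comparisons, 1 day after 16 exposure days (red), 28 days after 16 exposure days (grey) and 1 day after 1 exposure day (blue). Mal2 stands at -0.35, 0.08 and 0.00 and Ptprt at -0.93, 0.49 and 0.23, and Cldnd1, Myl12b, Rab27a and Wbp2 lie above 0 after 16 exposure days and below 0 after 1 exposure day.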

How the data were processed

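Libraries were made from 1 µg of total RNA per lung piece, depleted of ribosomal RNA, with a stranded kit and 12 PCR cycles, per the labels' protocols. The submitters' processing notes name HISAT2 2.1.0, HTSeq 0.6.1, SAMtools 1.8, Trimmomatic 0.35, bcl2fastq 2.19 and the rat build Rnor_6.0. The annotation and the strand setting are not given in the sources used here. Antisense, overlapping and near-identical genes are therefore uncertain. The authors deposited raw read counts for 30045 gene symbols in 2 tables, 1 per schedule, and 0 columns belonged to no sample. For animal 32, of another group, the description names the other table, and its title was followed.

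Counts were normalized by TMM and low genes removed with filterByExpr in edgeR 4.0.16 (R 4.3.3). The 24 libraries of the 16-exposure table were fitted with 4 group means, and the schedule difference with all 48 libraries and 8 group means. Each contrast had a two-sided quasi-likelihood test in edgeR, called at a Benjamini-Hochberg adjusted p below 0.05 over all genes tested. Standard errors were derived from the F statistic and are approximate. Levels are TMM-normalized CPM, except for shares and floors, which use library totals. All 30 pairs of libraries within the groups had a chi-square per gene of 2.96 to 108, more than sampling noise, and each library counted as 1 animal. Reads carry no molecular identifiers, so floors cover counting error only. The steps were tested on simulated counts.

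Members and gene lists were chosen with earlier results of these data known, and list counts and medians carry no test. Named were genes past the threshold, up to 15 per direction past it without animal 43, the 5 per direction with the smallest p, up to 4 members per described list and 5 per interaction. A few genes that this rule takes were left out of the text. Outside the lists a named gene needed a mean of at least 1 CPM and a symbol not assigned by locus number. Of the gene symbols, 19073 matched a current RefSeq symbol and 2409 a synonym. Promoters are RefSeq's, of the assembly GRCr8, matched by symbol.

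Alternatives were RLE factors, no filter, DESeq2 1.42.0, limma-voom (limma 3.58.1) with sample weights, the 12 or all 48 libraries, a minimum change of 1.5-fold, 1 surrogate variable (sva 3.50.0), and the omission of each of the 12 animals compared in turn. An erythroid score as a covariate was added after the data were seen.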

Additional observations from a re-analysis of the deposited data

Results flagged for a closer look

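The level of a gene in 1 animal lay far from the other 5 of its group in 34 of 166 gene and group tests (20.5%). Chance flags about 1 in 20 groups, but many of these genes were named for values that depend on animal 43, so the share cannot be set against chance. In 30 of the 34 the animal was 43. For 9 genes animal 43 was the lowest oil vapor lung, with 32.7 CPM for Khsrp, 64.4 for Itga9, 17.2 for Eml2, 59.9 for Atp6v0c, 209 for Rrbp1, 10.9 for Sema4c, 102 for Itpkb, 39.02 for Vps28 and 29.04 CPM for Aox3. Animal 43 was the highest oil vapor lung for the metabolic and trafficking genes Ndufb6 (19.97 CPM), Tmed7 (172 CPM), Pdha1 (201 CPM), Gsta4 (55.4 CPM) and Rab27a (69.9 CPM), for Zfp654 (107 CPM), and for the RNA-binding genes Hnrpd (116 CPM) and Srsf4 (71.7 CPM). It was also the highest for the blood cell genes Cd79b (60.8 CPM), S100a9 (572 CPM), Csf3r (51.7 CPM), S100a8 (249 CPM), Hbb (23775 CPM), Hba1 (4153 CPM) and Bpgm (2713 CPM), for the interferon genes Rsad2 (8831 CPM) and Ifit2 (112 CPM), and for the liver genes Alb (991 CPM), Apob (193 CPM), Ttr (59.0 CPM) and Fgb (62.6 CPM). Oil vapor animal 44 was low for Mgst1 (61.7 CPM). In the air group, animal 36 was low for Eml2 (25.5 CPM), animal 38 high for Cav2 (545 CPM) and animal 34 high for Hba1 (1014 CPM).

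The oil vapor effect of Ptprt differed between 1 and 28 days after 16 exposure days, by a log2 difference of -1.42 (adjusted p = 0.0472), a call lost with RLE size factors or no filter on low counts. The effects at 1 day differed between 16 and 1 exposure days for Rab27a (1.08), Zdhhc17 (-0.40), Cldnd1 (0.89), Myl12b (1.29) and Wbp2 (1.01), with adjusted p between 0.0279 and 0.0393 by edgeR's quasi-likelihood test of the difference.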

How the results depend on the processing

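Among genes higher in oil vapor lungs, 53 were called by limma-voom with sample weights, 65 by DESeq2, 9 with 1 surrogate variable, 7 with the erythroid score as a covariate, which was chosen after seeing the data, and between 0 and 17 when 1 animal was left out. Among genes lower in oil vapor lungs these numbers were 40, 34, 11, 8 and between 0 and 15. In edgeR with all 48 libraries, with only the 12 compared, without the filter or with a minimum of 1.5-fold, 0 genes were called lower, Mal2 included. The difference from 28 days was called for 0 genes with RLE size factors or no filter, 3 with limma-voom, 108 with DESeq2, and 0 to 4 when 1 animal was left out. The difference between schedules was called for 34 genes with limma-voom, 48 with DESeq2, and 0 to 25 when 1 animal was left out. With limma-voom, the S100a8 log2 fold change (-0.013), the Rsad2 log2 fold change (-0.73) and the Bpgm log2 fold change (-0.37) turned negative. With 1 surrogate variable they did so for Rsad2 (-0.52) and Bpgm (-0.27), and without animal 43 for S100a8 (-0.055), Rsad2 (-0.88) and Bpgm (-0.59). Leaving out another animal gave at most 1.31 for S100a8, 2.58 for Rsad2 and 2.30 for Bpgm. The cause of these changes was not tested. The medians of the erythroid and platelet lists turned negative under limma-voom, 1 surrogate variable and without animal 43. No paired analysis was possible because the groups share no animal numbers. At 1.54 M counts, animal 43 limits what can be said of low genes in the oil vapor group.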
